A study of Mus musculus with 145 samples.

Results

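The genes of microRNA silencing were examined for piggyBac transposon insertions in mouse mammary tumours. The set held Dicer1, the 4 Argonaute genes (Ago1, Ago2, Ago3 and Ago4) and the 3 TNRC6 genes (Tnrc6a, Tnrc6b and Tnrc6c). All 8 genes were found by gene identifier among the 13391 gene regions of the authors' deposited table, and their regions held 70 of the 198107 listed insertion sites. A tumour was called hit where a site between the start and the end of the region had 10 or more reads, and a position and strand seen in several tumours was credited to the library with most of its reads. The family was chosen by a measured value, the number of untreated tumours hit in Tnrc6c, so the recurrence of Tnrc6c and its group difference are descriptions and carry no test.

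All tumours were mammary fat pad tumours of mice that carried WAP-Cre, the Cre-dependent alleles LSL-PB and LSL-PIK3CA(H1047R), and ATP1. In these animals Cre, driven by the WAP promoter that mammary epithelium uses from late pregnancy, released the piggyBac transposase and the H1047R mutant of PIK3CA, the catalytic subunit of PI3K alpha, while ATP1 was the transposon set in motion. ATP1 can drive a gene from its own promoter or cut a transcript short. The resistant group held 51 tumours of 25 mice. These were treated every day with 30 mg/kg BYL719 (alpelisib, a PI3K alpha inhibitor) from a volume of 250 mm3, and had enlarged at 3 or more successive measurements within 3 weeks of treatment. The untreated group held 94 tumours of 23 other mice with no drug. Among them, tumour 88 has the title suffix R2 and the mouse and gland of tumour 58, and was counted as a separate tumour. The study compared both groups to find insertions that go with resistance to the drug. Every tumour carried the mutant PIK3CA and the mobile transposon, so no group shows insertions without them.

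MicroRNAs silence messenger RNAs through a short relay of proteins. Dicer cuts the precursor hairpin into the mature duplex, an Argonaute protein keeps the mature strand and uses its seed to find targets, and a TNRC6 (GW182) protein bound to Argonaute recruits the CCR4-NOT and PAN2-PAN3 deadenylases, after which the target is decapped and degraded. In mammary epithelium this pathway is known for its part in differentiation, and partial loss of Dicer is known to favour some tumours in mice.

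Libraries held 51 to 1604365 reads in the resistant group (median 136932) and 2950 to 938987 in the untreated group (median 48339). The median number of counted sites per tumour was 473 and 431, and 101066 sites were counted in all. Chromosome 10 held 20.9% of them and none of the 8 genes. For the 8 genes, densities and shares of hit genes are therefore set below against the 12557 gene regions on the other chromosomes. Tests and the shares of the wider pathway list used all chromosomes. Sample titles came in 4 forms (TgTum and tgTum in untreated, Tgtumor and Mouse in resistant tumours). No form held both groups, so title form and treatment cannot be told apart. Untreated tumours 37 and 88 and resistant tumour 42 had 0 counted sites and stayed in the group totals.

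The 8 genes together held 32 counted sites in 27 tumours, 23 of them in TNRC6 genes, 7 in Argonaute genes and 2 in Dicer1. Any of the 8 was hit in 13 of 51 resistant tumours (25.5%, Clopper-Pearson 95% interval 14.3 to 39.6%, 10 mice) and in 14 of 94 untreated tumours (14.9%, 8.39 to 23.7%, 10 mice). Insertions in some gene are common in these tumours: 82.4% of gene regions were hit in at least 1 tumour and 17.5% in at least 5. Tnrc6b (14 tumours) and Tnrc6c (5 tumours) were the members hit in at least 5. Ago3 followed with 3 tumours, Ago1 and Dicer1 with 2 each, and Tnrc6a, Ago2 and Ago4 with 1 each, so that neighbours from Tnrc6c downwards differed by at most 2 tumours. Only 2 tumours carried insertions in more than 1 member: resistant tumour 40 (Tnrc6b and Ago3) and untreated tumour 75 (Tnrc6b and Ago1). Of the other listed sites, 33 stayed below 10 reads and 5 had no reads in any library. The lowest counted site had 12 reads and the highest site left out had 7.

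**Figure D1:**
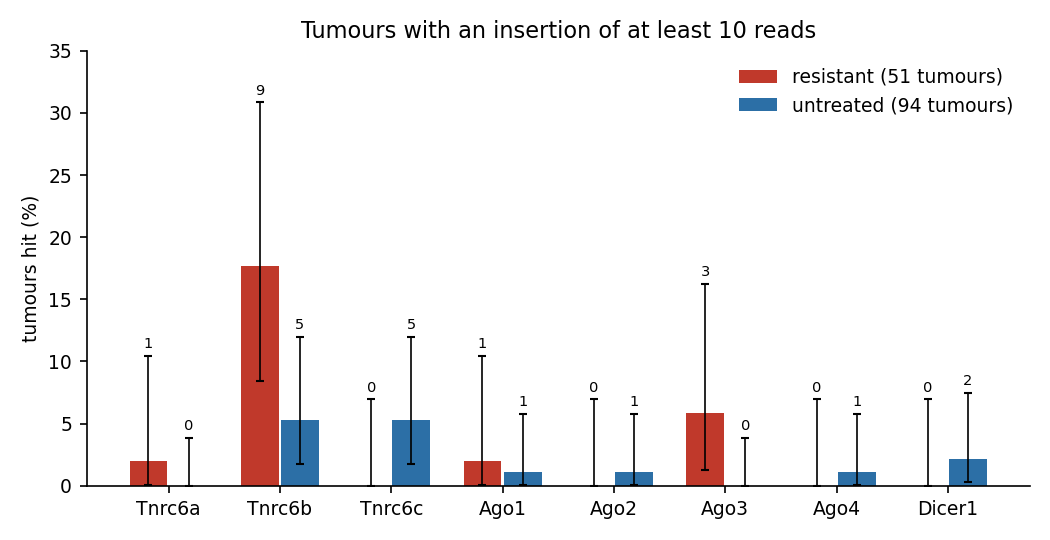
Percent of the 51 resistant and 94 untreated tumours hit in each of the 8 genes. Whiskers are Clopper-Pearson 95% intervals and the digits above them are the tumours hit; Tnrc6b stands at 17.6% against 5.32% and Tnrc6c at 0 against 5.32%.

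None of the 8 genes stood out for the density of its insertions. Over all gene regions outside chromosome 10 the median density was 4.29 counted sites per 100 kb and the 95th percentile 21.8. Tnrc6b had 6.90 (exact Poisson 95% interval 3.95 to 11.2), Ago1 5.65 (0.684 to 20.4), Tnrc6c 5.40 (1.98 to 11.7), Ago3 3.30 (0.681 to 9.65), Dicer1 3.02 (0.366 to 10.9), Ago4 2.18 (0.0551 to 12.1), Tnrc6a 1.36 (0.0345 to 7.59) and Ago2 1.17 (0.0297 to 6.53). The 8 intervals overlapped each other, and each held the median of 4.29. Of 442 gene regions of similar length to Tnrc6b, 11.8% were hit in as many tumours as Tnrc6b, and of 1068 of similar length to Tnrc6c, 39.1% were hit in as many as Tnrc6c.

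**Figure D2:**
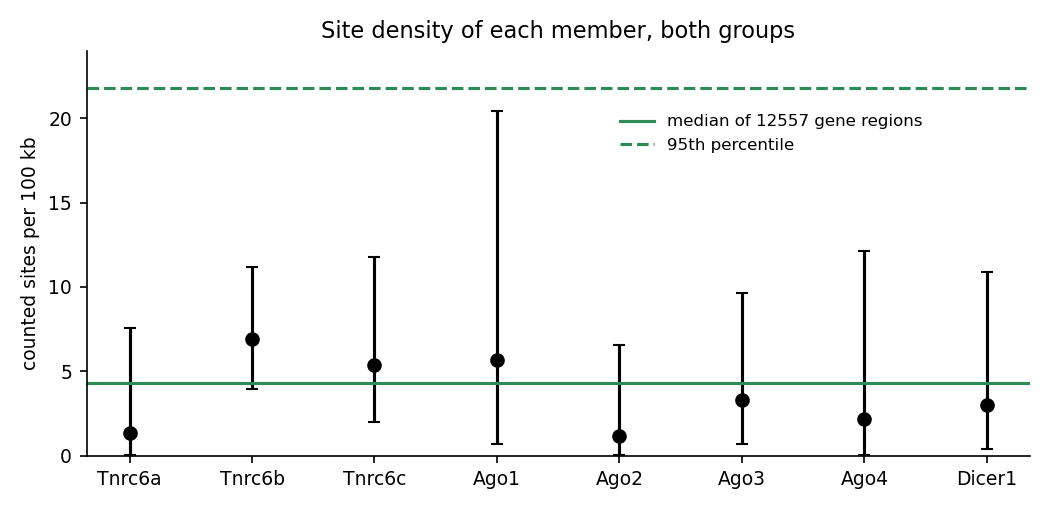
Counted insertion sites per 100 kb in each gene region, with exact Poisson 95% intervals. The lines mark the median (4.29) and the 95th percentile (21.8) of 12557 gene regions outside chromosome 10, and every gene lies below the upper line.

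Dicer1 (identifier 192119, chr12:104687742-104753952, mm10, minus strand), the RNase that makes the mature microRNA duplex, was hit in 2 of 94 untreated tumours (2.13%, 0.259 to 7.48%) and in 0 of 51 resistant tumours (upper bound 6.98%). Untreated tumour 35 had 89 reads at a site in the orientation of the gene, and untreated tumour 63 had 19 reads at a site against it. These sites lay 26.4 and 33.1 kb downstream of the RefSeq start, in the middle of the region. They ranked 194 and 326 by reads in their tumours, and the difference between groups was -2.13 percentage points (Newcombe 95% interval -7.43 to 5.04). With 1 read taken as enough the sign turned, with 2 tumours hit in each group.

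The Argonaute genes were hit in 4 resistant tumours (7.84%, 2.18 to 18.9%, 3 mice) and 3 untreated tumours (3.19%, 0.663 to 9.04%, 3 mice). Ago1, Ago3 and Ago4 are neighbours on chromosome 4, all on the minus strand, and Ago2 lies on chromosome 15. None was hit in 5 tumours, so none entered a test. Of their 7 sites, 4 pointed with the gene and 3 against it.

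Ago3 (identifier 214150, chr4:126340678-126431542, minus strand), an Argonaute that binds microRNAs like the others, was hit in 3 of 51 resistant tumours (5.88%, 1.23 to 16.2%) and in 0 of 94 untreated tumours (upper bound 3.85%), a difference of 5.88 percentage points (0.375 to 15.9). Reads were 25 in resistant tumour 8, 92 in resistant tumour 9 and 332 in resistant tumour 40. Tumours 8 and 9 came from the same mouse, and without that mouse 1 of 48 resistant tumours was hit. The table region covers 86.8% of the RefSeq gene, and the other 13.8 kb held 1 counted site, in an untreated tumour, which is not counted here. The Ago3 sites are shown because the insertion of tumour 40 lay away from TTAA, unlike all other counted sites of the 8 genes. Each line gives the bases beside the insertion from the authors' deposited table, read along the strand of the insertion, with TTAA, the sequence piggyBac targets, in capitals.
Ago3, resistant 8, chr4:126390885-126390892, minus strand: TTAAcaag
Ago3, resistant 40, chr4:126406429-126406436, plus strand: gcaagggc
Ago3, resistant 9, chr4:126419232-126419239, plus strand: TTAAatga
With TTAA sites only, Ago3 was hit in 2 of 51 resistant tumours and 0 of 94 untreated tumours. Those were tumours 8 and 9, of the same mouse. With 1 read taken as enough, Ago3 hits numbered 5 resistant tumours and 1 untreated tumour. Among the 100 or the 300 most-read sites of each tumour it was hit in none. The authors' deposited table counted 3 insertions in 3 resistant tumours (5.88%) and 0 in untreated tumours.

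Ago1 (identifier 236511, chr4:126435013-126470421), which loads mature microRNAs, was hit in resistant tumour 35 with 702 reads, against the gene, and in untreated tumour 75 with 58 reads, in its orientation. The site of tumour 75 lay 927 bp downstream of the nearest RefSeq start, the closest of any downstream site to a start among the 7 genes with one in the promoter table. Ago2 (identifier 239528, chr15:73101625-73186947), the Argonaute that can slice a fully paired target, was hit in untreated tumour 47 alone, with 294 reads in the orientation of the gene. Ago4 (identifier 76850, chr4:126489543-126535458) was hit in untreated tumour 54 alone, with 340 reads, also in the orientation of the gene. These single hits gave differences between groups from -1.06 to 0.897 percentage points, each with an interval that held 0, and for all 3 genes the sign turned under at least 1 other read or rank minimum.

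Tnrc6a (identifier 233833, chr7:123121885-123195296, plus strand), a TNRC6 scaffold that joins Argonaute to the deadenylases, was hit in resistant tumour 12 alone, with 28 reads against the orientation of the gene. Among the 300 most-read sites of each tumour it was instead hit in 0 resistant tumours and 1 untreated tumour. Its table region covers 44.7% of the RefSeq gene. The remaining 90.8 kb of the gene held 2 further counted sites, 1 in a resistant and 1 in an untreated tumour, which are not counted above. The authors' deposited table gave Tnrc6a 3 insertions in resistant and 1 in untreated tumours.

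Tnrc6b (identifier 213988, chr15:80709313-80941086, plus strand), the paralogue with the longest region of the 8 at 232 kb, was hit in 9 of 51 resistant tumours (17.6%, 8.401 to 30.9%, 8 mice) and in 5 of 94 untreated tumours (5.32%, 1.75 to 11.98%, 5 mice). Its 11 sites in resistant tumours had 12 to 768 reads (median 47), and its 5 sites in untreated tumours had 18, 25, 35, 37 and 71 reads. Read counts overlapped between the groups, and the 3 sites above 100 reads (120, 281 and 768) were all in resistant tumours. Raw reads depend on library size, and the site of 281 reads ranked 1298 of 2178 in its tumour. As a share of library reads the median Tnrc6b site held 0.0175% in resistant and 0.159% in untreated tumours. This share depends on library size too. The libraries hit held 30514 to 1604365 reads in the resistant and 7588 to 36644 in the untreated group. Above the median reads of the counted sites of their own tumour were 6 of 11 sites in resistant and 1 of 5 in untreated tumours. The difference in tumours hit was 12.3 percentage points (1.94 to 25.3). It had an unadjusted p of 0.0353 and an adjusted p of 0.990 over 2558 gene regions (two-sided Fisher exact test, Benjamini-Hochberg), so it did not pass the test. No gene region did (0% of 2558), and 60 (2.35%) had an unadjusted p under 0.05 with a higher share in resistant tumours, with 17 (0.665%) in the other direction.

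Tumours of a mouse are not independent, so the group label was also permuted over mice. Tnrc6b then had p = 0.00814 and adjusted p = 0.723 (permutation test, 100000 resamples), where 0.156% of gene regions passed and 5.79% were under 0.05 without adjustment. Counted as mice, 8 of 25 resistant and 5 of 23 untreated mice had a Tnrc6b hit (Fisher exact p = 0.523). By title form it was hit in 8 of 35 Tgtumor tumours (22.9%), 1 of 16 Mouse tumours (6.25%), 2 of 61 TgTum tumours (3.28%) and 3 of 33 tgTum tumours (9.09%). The Mouse form, which is resistant, lay between both untreated forms.

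The resistant libraries had the higher median of reads. The 14 tumours hit in Tnrc6b had a median of 742 counted sites (89 to 3320), against 447 over all tumours. By title form the medians of counted sites were 637 in Tgtumor, 241.5 in Mouse, 729 in TgTum and 258 in tgTum tumours. TgTum had the lowest share hit in Tnrc6b. Depth as a cause of the group difference was not tested. Per 10000 counted sites there were 2.95 Tnrc6b sites in resistant and 0.784 in untreated tumours (permutation over mice p = 0.0144, adjusted p = 0.588, passed by 0.0391% of gene regions). When a hit had to hold at least 0.1% of the reads of its library, the direction turned, with 2 of 51 resistant and 4 of 94 untreated tumours. With the 100 most-read sites of each tumour the counts were 2 and 1, and with the 300 most-read sites 4 and 4.

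Ranked by reads within their tumours, the Tnrc6b sites spread widely. In resistant tumours the sites ranked 50 to 2982 by reads (median 502), and 2 of 11 were among the 100 most-read sites. In untreated tumours they ranked 62 to 348 (median 154), with 1 of 5 in the top 100. That site, in untreated tumour 69, ranked 62 of 89 counted sites, so any site of this tumour is in the top 100. The tumours hit held 434 to 3320 counted sites in the resistant and 89 to 729 in the untreated group. Ranks are therefore not comparable between the groups. Over all counted sites 12.7% in resistant and 13.6% in untreated tumours were in the top 100. None of the 32 sites of the 8 genes was among the 10 most-read sites of its tumour.

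**Figure D3:**
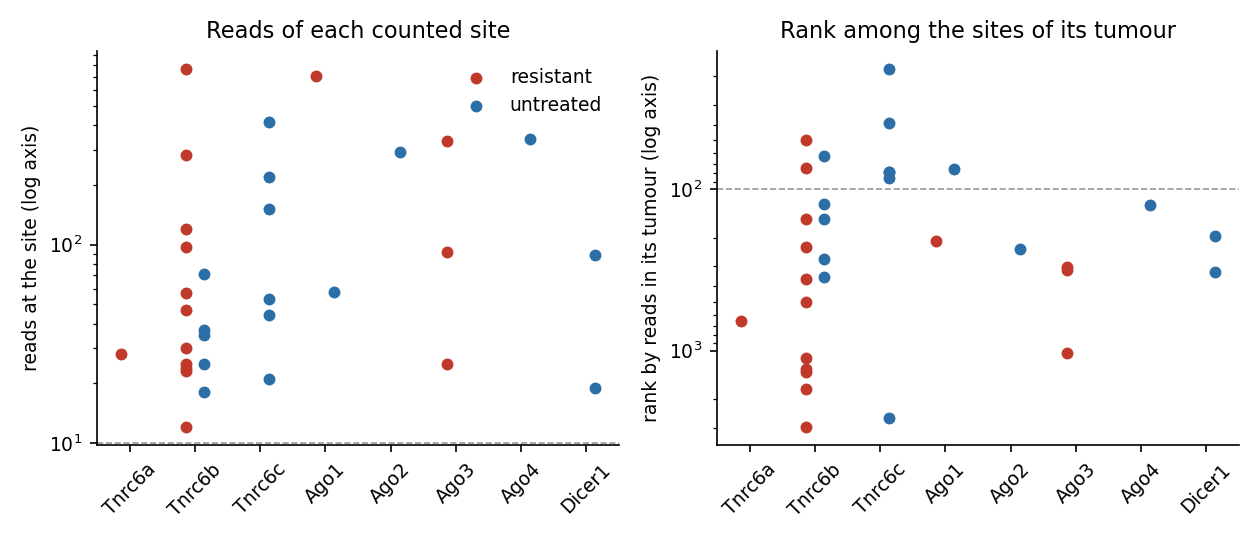
Reads of each counted site (log axis) and its rank by reads within its tumour (log axis), by gene and group. The dashed lines mark the minimum of 10 reads and rank 100. Of 6 Tnrc6c sites 5 rank 100 or better, and of 16 Tnrc6b sites 3 do. Ranks depend on the number of counted sites of the tumour, which is as low as 89 in untreated tumour 69.

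Insertions in Tnrc6b lay in both orientations, from 8.60 to 193 kb along its region of 232 kb. In the orientation of the gene were 9 of 16 (exact binomial p = 0.804, adjusted p = 1, passed by 0.292% of 1028 gene regions with at least 10 sites, with 3.4% under 0.05 unadjusted). The split was 6 of 11 in resistant and 3 of 5 in untreated tumours (Fisher exact p = 1, adjusted p = 1, passed by 0% of 1020 gene regions, with 2.25% under 0.05 unadjusted). The first 50% of the region from its 5′ end held 10 of 16 sites (exact binomial p = 0.454, adjusted p = 1, passed by 0.584% of 1028 gene regions, with 7.1% under 0.05 unadjusted). Over all gene regions outside chromosome 10, 49.98% of counted sites had the orientation of the gene and 54.4% lay in the first 50%.

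Around an internal RefSeq start of Tnrc6b the counted sites were all from resistant tumours, as were 11 of the 16 counted sites of the whole gene. Within 15 kb of it on either side lay 6 sites of 5 resistant tumours from 5 mice and 0 sites of untreated tumours, in a window of 12.9% of the region. Of these, 4 had the orientation of the gene, and those of resistant tumours 25 and 23, from different mice, were 318 bp apart. Within 1, 5, 10 and 20 kb lay 1, 3, 4 and 6 sites of resistant tumours and 0 of untreated tumours. By reads the 6 sites ranked 154 to 2982 in their tumours, which held 755 to 3320 counted sites. Tnrc6b sites below 10 reads, 6 in resistant and 7 in untreated tumours, are not part of this count. All 5 tumours had the title form Tgtumor, the form with the highest share hit in Tnrc6b. This grouping was noticed after the positions had been seen, so it has no test. The share of like windows in other genes was not measured. The 6 sites are printed in order along the gene to show the bases at each.
Tnrc6b, resistant 10, chr15:80785254-80785261, minus strand: TTAAtagt
Tnrc6b, resistant 10, chr15:80798074-80798081, plus strand: TTAAcctc
Tnrc6b, resistant 25, chr15:80802755-80802762, plus strand: TTAAtaca
Tnrc6b, resistant 23, chr15:80803073-80803080, plus strand: TTAAacct
Tnrc6b, resistant 32, chr15:80808500-80808507, plus strand: TTAAaaat
Tnrc6b, resistant 27, chr15:80810738-80810745, minus strand: TTAAaaat
The nearest site lay at -532 bp from that start, on its upstream side, in resistant tumour 10, with 12 reads. The following sites were 4.15, 4.47, 9.89 and 12.1 kb downstream, with 57, 23, 47 and 24 reads, and the first lay at -13.4 kb with 25 reads. The promoter window of this start (RefSeq, GRCm38.p6, 250 bases before to 50 after the start) is printed for its place beside these sites, with TTAA in capitals. TTAA, which reads the same on both strands, occurs 1 time in it, and 52.4% of 32851 such windows hold it.
Tnrc6b internal promoter window, chr15:80798360-80798659, plus strand: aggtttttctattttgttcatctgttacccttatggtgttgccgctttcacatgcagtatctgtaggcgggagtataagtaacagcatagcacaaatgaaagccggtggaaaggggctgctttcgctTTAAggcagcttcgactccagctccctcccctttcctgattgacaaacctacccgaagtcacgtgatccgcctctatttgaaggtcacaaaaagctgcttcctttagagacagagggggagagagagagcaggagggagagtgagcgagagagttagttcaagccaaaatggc
The authors' deposited table gave Tnrc6b 17 insertions in 12 resistant tumours (23.53%) and 11 insertions in 10 untreated tumours (10.64%). In the authors' deposited table the signed score of a common integration site was 2.67 for the resistant and 0 for the untreated group. This is a −log10 p-value score from the same libraries. Scores of the other members ran from -0.551 (Tnrc6a, untreated) to 0.694 (Ago1, resistant). The share of gene regions that reach 2.67 was not measured.

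**Figure D4:**
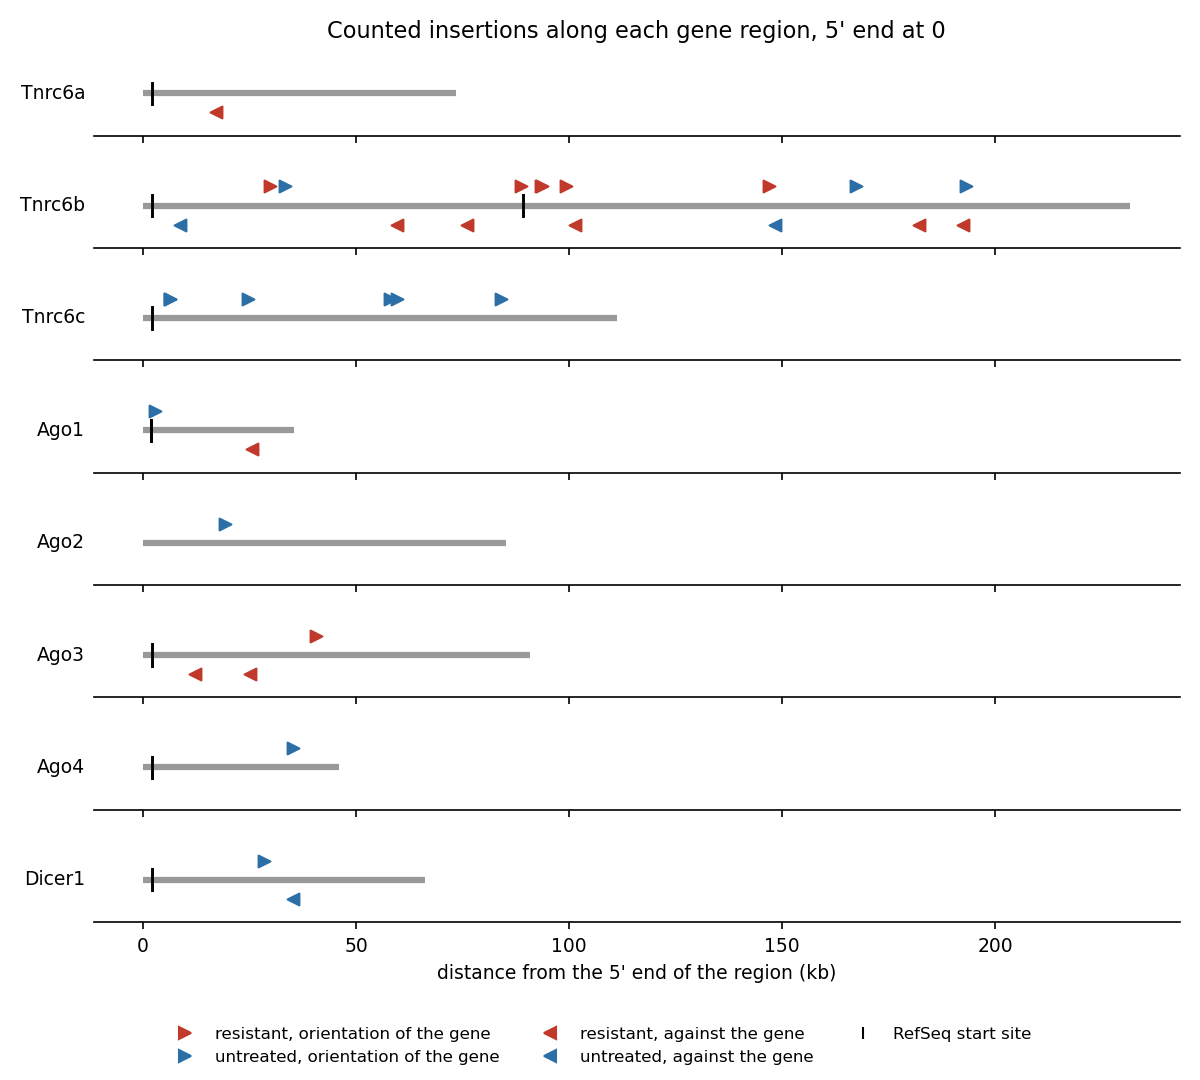
Counted insertions along each gene region, in kb from its 5′ end, with arrows for the orientation relative to the gene, colours for the group and ticks for RefSeq starts. All 6 Tnrc6c arrows point with the gene. The Tnrc6b sites around the internal start are from resistant tumours, as are 11 of all 16 Tnrc6b sites.

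Tnrc6c (identifier 217351, chr11:117652289-117763441, plus strand), the remaining TNRC6 scaffold, was hit in 5 of 94 untreated tumours (5.32%, 1.75 to 11.98%) from 5 mice and in 0 of 51 resistant tumours (upper bound 6.98%). The difference was -5.32 percentage points with an interval of -11.9 to 2.31. Reads were 219 in untreated tumour 43, 151 in tumour 78, 53 in tumour 64, 44 in tumour 83, and 413 and 21 at the sites of tumour 3. Every counted site was in an untreated tumour, with 2 hit tumours titled TgTum (3.28%) and 3 titled tgTum (9.09%). Of 542 gene regions hit in exactly 5 tumours, 42 (7.75%) also had all 5 in the untreated group. A further site below 10 reads lay in a resistant tumour.

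The 6 Tnrc6c sites are shown because they all had the orientation of the gene and all lay at TTAA.
Tnrc6c, untreated 43, chr11:117658522-117658529, plus strand: TTAAgata
Tnrc6c, untreated 78, chr11:117658638-117658645, plus strand: TTAAgaca
Tnrc6c, untreated 3, chr11:117676834-117676841, plus strand: TTAAggag
Tnrc6c, untreated 64, chr11:117710286-117710293, plus strand: TTAAccac
Tnrc6c, untreated 83, chr11:117711841-117711848, plus strand: TTAAtagg
Tnrc6c, untreated 3, chr11:117736329-117736336, plus strand: TTAAagag
Orientation was not used to choose the family. Of 367 gene regions with exactly 6 counted sites, 8 (2.18%) had all 6 pointing with the gene and 7 (1.91%) all 6 against it. In a test added after the data were seen, over 2526 gene regions with at least 5 sites, Tnrc6c had an unadjusted p of 0.0312 and an adjusted p of 1 (exact binomial test). Of the 2526 gene regions 3 passed and 63 had an unadjusted p under 0.05. The test takes the 2 sites of tumour 3 as independent. With each tumour counted once, 5 of 5 sites had the orientation of the gene, which was not tested. Both sites below 10 reads lay against the gene, so that 6 of 8 sites with any reads had its orientation. The authors' deposited table likewise listed 6 insertions with the gene and 0 against it in untreated tumours, and 1 insertion, against the gene, in resistant tumours.

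From the RefSeq start of Tnrc6c the sites lay 4237, 4353, 22549, 56001, 57556 and 82044 bp downstream. The first and second, in tumours 43 and 78 of different mice, were 116 bp apart. The promoter window at the start is printed because this pair lies shortly downstream of it. It has a GC content of 71.3% and no TTAA, and no site was counted inside it.
Tnrc6c promoter window, chr11:117654039-117654338, plus strand: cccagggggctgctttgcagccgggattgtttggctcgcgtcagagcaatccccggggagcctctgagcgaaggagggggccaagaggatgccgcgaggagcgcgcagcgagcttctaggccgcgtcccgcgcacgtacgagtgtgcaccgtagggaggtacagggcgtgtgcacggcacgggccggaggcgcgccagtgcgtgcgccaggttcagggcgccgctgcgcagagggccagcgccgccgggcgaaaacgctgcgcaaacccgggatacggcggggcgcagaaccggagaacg
By reads, 5 of the 6 sites were among the 100 most-read sites of their tumour. They ranked 18 of 335 counted sites in tumour 78, 39 of 107 in tumour 83 and 78 of 202 in tumour 64. In tumour 43 the rank was 78 of 2660, and in tumour 3 it was 85 of 3017. The other site of tumour 3 ranked 2591 of 3017. Over all untreated tumours 13.6% of counted sites were in the top 100. This share is higher in tumours with few counted sites, so it is no yardstick for tumours 78, 83 and 64. The earlier result that drew attention to Tnrc6c counted the 100 most-read sites of each tumour, so these ranks are a description. As shares of their library the sites held 0.00503 to 0.882% of reads (median 0.284%).

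The rest of the microRNA pathway was hit without a group difference that passed the test. Of 51 other genes listed for the pathway, 41 had a region, 38 were hit in at least 1 tumour (92.7% of the 41, against 83% of all 13391 gene regions) and 10 in at least 5 (24.4%, against 19.1%). The list includes 3 genes on chromosome 10. None of these 10 passed the Fisher exact test over 2558 gene regions, and none had an unadjusted p under 0.05. The share of tumours was higher in resistant tumours for 19 and lower for 19 of the 38. Over all 41 genes with a region, those on chromosome 10 included, the medians were 3 tumours hit and 6.46 sites per 100 kb. Over all gene regions outside chromosome 10 they were 1 and 4.29.

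Among nuclear processing genes Drosha, the RNase that frees the hairpin from the primary transcript, was hit in 2 resistant and 5 untreated tumours. Of the deadenylation genes, the CCR4-NOT subunits Cnot1 and Cnot2 were hit in 3 and 8 resistant and in 3 and 12 untreated tumours, Cnot2 lying on chromosome 10 where sites are dense, and Pan3 was hit in 2 and 3. Lsm14a, a partner of the decapping machinery, was hit in 1 resistant and 4 untreated tumours. Among the regulators Snd1, a nuclease that degrades edited microRNA precursors, was hit in 12 resistant (23.5%) and 23 untreated tumours (24.5%), more tumours than any other gene of the list. Lin28b, the let-7 inhibitor, also on chromosome 10, was hit in 6 resistant (11.8%) and 23 untreated tumours (24.5%, Fisher exact p = 0.0831, adjusted p = 1). The let-7 uridylyltransferase Tut4 was hit in 1 and 6, and the RNA-binding proteins Fxr1 and Fmr1 in 3 and 2 resistant and 7 and 3 untreated tumours.

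The gene regions outside chromosome 10 whose hit tumours were most like those of Tnrc6b were Arid2 and Pbrm1. Arid2 shared 5 of 19 tumours hit in either gene (Jaccard index 0.263 over the tumours of both groups) and Pbrm1 5 of 21 (0.238), the highest of 760 gene regions hit in at least 10 tumours. Tmem132d, Sbf2, Atad2b and Cpa6 followed, tied at 5 of 22 (0.227). These overlaps come from the same libraries and share their depth, so they are a description with no test.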

How the data were processed

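Genomic DNA was sheared, ligated to a splinkerette adaptor, amplified from the 5′ transposon arm and sequenced in paired 100 bp reads, per the labels' protocols. Positions refer to mm10, a build named in the submitters' processing notes, and the aligner, site caller and filters are not given in the sources used here. Per the deposited site table, values were whole-number read counts per site and library, not normalised as far as the values show. The authors' deposited region table gave insertions, hit tumours, percent of tumours and a signed −log10 p-value score per group, per the file headers. A further 580 columns of per-library values were not used.

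Members and gene lists were chosen with earlier results of these data known. A site of 10 or more reads was counted, only in its most-read tumour (ties in none), and sites of a tumour within 10 bp on a strand were counted once. Genes were matched by identifier, since the deposited symbol column matched in 0 of 2901 comparisons. Strand came from RefSeq promoters (9755 genes) or the extended end of the region (2451). The resulting orientation shares lay within 25 points of the authors' for 97.1% of 2490 genes. With strands flipped, 62.6% also did, so the check is a loose one. Exons and introns were not assigned, for want of a gene model. Site sequences matched RefSeq promoter sequence at 956 of 956 sites inside promoter windows. Promoter windows of 7 of the 8 members were found, Ago2 being the other.

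Tests were two-sided, over gene regions hit in at least 5 tumours or with at least 10 sites, with Benjamini-Hochberg adjustment and a threshold of 0.05. The Fisher test of tumours hit, the permutation of shares over mice and the binomial test were tried on simulated data with independent tumours. The test of orientation between groups and the permutation of rates were not. Intervals are Clopper-Pearson for shares, Newcombe for differences and exact Poisson for densities, and cover counting error only, as reads of a PCR with no molecular identifiers do not stand for independent molecules. Titles name 48 mice and the labels state 53. Named genes were all members, genes of the pathway list hit in at least 5 tumours, at most 10, and the 5 gene regions most like Tnrc6b by Jaccard index, with ties. Python 3.11.15, pandas 2.3.3, numpy 2.4.6, scipy 1.17.1 and matplotlib 3.10.9 were used.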

Additional observations from a re-analysis of the deposited data

How the results depend on the processing

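No paired analysis was possible because no mouse gave both resistant and untreated tumours and the replicate numbers only follow accession order. The number of gene regions that differed between groups after adjustment was 0, and it stayed 0 under the other settings tried except that it was 1 at 0.1% of library reads and 14 with shared positions kept in every tumour. It was 1 for the rate of sites per 10000 counted sites and 4 for shares permuted over mice, against 77 at an unadjusted Fisher p under 0.05. The number of gene regions with skewed orientation was 3, and became 5 at 1 or more reads and 18 with shared positions kept. It was 5 among genes with at least 20 sites and 2 with each tumour counted once per gene. The number skewed to the first or last 50% of the region was 6. It became 5 at 1 or more reads, 1 at 100 or more reads and 21 with shared positions kept. With each tumour counted once per gene it was 3, and among genes with at least 20 sites it was 9. The members' differences between groups took the opposite sign in 9 of 120 alternative values and came to 0 in 10. The opposite signs were those of Tnrc6b (-0.334 percentage points), Tnrc6a (-1.06) and Ago1 (-1.06) at 0.1% of library reads, Tnrc6a with the 300 and Ago1 with the 100 most-read sites (-1.06 each), Ago1 with mice as units (-0.348), and Ago2 (1.79), Dicer1 (1.79) and Ago4 (0.897) at 1 or more reads. The share of sites in the orientation of the gene crossed 50% in 1 of 62 values, for Tnrc6b, with 33.3% (1 of 3 sites) at 100 or more reads. The cause was not tested. The Tnrc6b difference was otherwise 2.86 to 17.5 percentage points, with adjusted p of 0.465 to 1 wherever it was tested. Without untreated tumour 3, Tnrc6c was hit in 4 of 93 untreated tumours, an alternative chosen after seeing the data, as was leaving out the mouse with Ago3 hits. Most members were hit in 3 tumours or fewer, which limits what any comparison of them can show.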

Other observations

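Of the 32 counted sites in the 8 genes, 7 also had reads in other libraries, at most 2 reads each. For Ago4 both other libraries were of the same mouse, and for the other 6 sites none was. In the authors' deposited table Tnrc6c has 6 insertions but 8 hit tumours in the untreated group (8.51%). In 6 mice, 4 untreated and 2 resistant, more than 1 member was hit in the tumours of the mouse, and Tnrc6b was among the members in each. An untreated mouse with 4 tumours had hits in 3 members, Tnrc6b, Tnrc6c and Ago1.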
